A study of Mus musculus with 4 samples.

Results

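The 6 actin genes of the mouse, Actc1, Acta1, Acta2, Actg2, Actb and Actg1, were followed through whole-heart RNA-seq of mice lacking both miR-1 genes. They were taken by name from the deposited tables of gene expression, where they are 6 of 22552 gene rows, and all 6 were found at both stages. Poly-A RNA, extracted with TRIzol from whole hearts of Sv129 mice, had been sequenced in 4 libraries, 1 for each combination of stage and genotype. The stages were postnatal day 2.5 (P2.5), read from a single end, and embryonic day 15.5 (E15.5), read from both ends, with reads of 100 bases at each. The genotypes were a double knockout of miR-1-1 and of its paralog miR-1-2, labelled dKO, and a littermate control labelled dHET. The label dHET is read here as double heterozygous, and the control column at P2.5 is headed mir_1_hetero. The question posed by the series was which genes are dysregulated when both miR-1 genes are deleted. At E15.5 the control column of the deposited table has a heading ending in WT, while the sample label reads dHET.

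With 1 library per group there was no replicate error, and every difference below is between 2 libraries. The labels do not say how many hearts went into a library. In whole-heart RNA, fewer cells of a type and less RNA per cell cannot be told apart. Levels are the authors' FPKM (fragments per kilobase of transcript per 1000000 fragments), a scale on which genes of different length can be compared. The libraries at P2.5 also differed in sex-linked genes. Xist, the RNA of the inactive X chromosome, was at 0.101 FPKM in dHET against 50.7 in dKO. Ddx3y, on the Y chromosome, was at 11.7 and listed at 0 in the same order. At E15.5 both libraries held Y-linked RNA, with Ddx3y at 15.3 and 14.8. The part of this in the P2.5 differences was not tested. Heart muscle markers summed to between 8626 and 22531 FPKM over the 4 libraries, and the skeletal muscle regulator Myf6 was listed at 0 in all 4.

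Actin is the protein of the thin filament of muscle and of the microfilaments of every cell. Actc1 encodes the cardiac alpha actin of the adult sarcomere, and Acta1 the skeletal muscle alpha actin, which the developing heart also makes. Acta2 encodes the alpha actin of vascular smooth muscle, which embryonic heart muscle cells and myofibroblasts also make, and Actg2 the gamma actin of enteric smooth muscle. Actb and Actg1 encode the cytoplasmic actins. Muscle actin genes are classic targets of serum response factor (SRF), which binds the CArG box, and of its coactivator myocardin. Heart muscle cells make much miR-1, a microRNA that represses messenger RNAs pairing with its seed.

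The 6 genes encode nearly the same protein from coding sequences that differ much more, and these differences are what assigns a read to a gene. The first 60 coding bases are shown for each, 5′ to 3′ on the coding strand, read from the genome build NCBIM37 (the assembly of mm9) with GENCODE release M1. Capitals mark bases that differ from Actc1 in an alignment of the whole coding sequences. All 6 genes lie on the minus strand.
Actc1: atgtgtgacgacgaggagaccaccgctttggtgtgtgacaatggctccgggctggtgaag
Acta1: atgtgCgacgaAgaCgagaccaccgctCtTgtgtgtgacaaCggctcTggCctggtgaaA
Acta2: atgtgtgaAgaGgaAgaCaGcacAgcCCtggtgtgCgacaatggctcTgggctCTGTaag
Actg2: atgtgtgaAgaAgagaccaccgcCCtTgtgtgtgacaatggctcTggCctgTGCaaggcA
Actb: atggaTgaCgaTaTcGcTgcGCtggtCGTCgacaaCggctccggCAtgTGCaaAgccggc
Actg1: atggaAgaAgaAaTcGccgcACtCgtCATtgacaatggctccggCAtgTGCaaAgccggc
These stretches are at chr2:113877708-113877767 for Actc1, chr8:126417538-126417597 for Acta1 and chr19:34326984-34327043 for Acta2. Those of the other genes are at chr6:83477376-83477435 for Actg2, chr5:143667306-143667365 for Actb and chr11:120209346-120209405 for Actg1. Acta1 had 9 bases different from Actc1 in the stretch shown, Acta2 14 and Actb 19.

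Over the whole coding sequence, pairs of actins were 81.9% to 88.7% identical in bases, and the proteins translated from them 93.6% to 99.5% identical. Identities and differing residues were counted over aligned positions, as the proteins were 375 to 377 residues long. The pair with the fewest differing residues was Acta2 and Actg2, the smooth muscle actins, although their coding sequences were 84.4% identical. They differed at 2 of 376 aligned residues, with 377 residues in Acta2 and 376 in Actg2. Acta1 and Actc1, the striated muscle actins, differed at 4 residues, as did Actb and Actg1. Actc1 and Acta2, on which the comparison below turns, differed at 6 residues and were 82.5% identical in coding bases.

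How far a read can be placed differed between the genes. Every 100-base window of each spliced transcript was searched against the genome and the annotated transcripts, with up to 2 mismatches and no gaps. None of the windows of Actc1, Acta1, Acta2 or Actg2 matched elsewhere, and no window of any of the 6 matched another of the 6. Of the Actb windows, 14.8% matched at least 1 of 4 other loci. Of the 1853 Actg1 windows, 1809 (97.6%) matched at least 1 of 13 other loci. How the authors treated reads with several matches is not given in the sources used here, so the levels of Actg1, and less so of Actb, are uncertain in a way that those of the muscle actins are not.

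**Figure D1:**
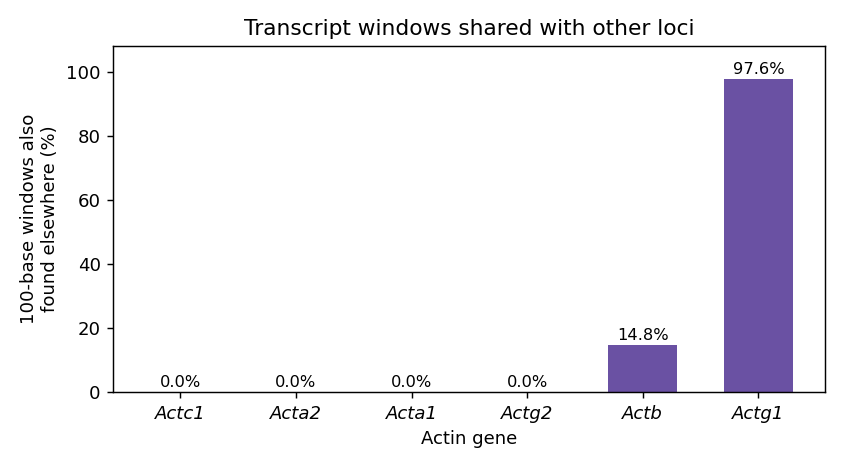
Share of 100-base windows of each spliced actin transcript (percent, vertical bars from 0) that match another place in the genome or another gene's transcript with up to 2 mismatches. Actg1 stands at 97.6% and Actb at 14.8%, while the 4 muscle actins are at 0.

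In every one of the 4 libraries the order of the levels was Actc1, Acta2, Actb, Acta1, Actg1 and Actg2. Actc1, RefSeq NM_009608 at chr2:113873024-113878547 in the authors' mm9 coordinates, was at 6153 FPKM in dHET against 7921 in dKO at P2.5. At E15.5 it was at 4567 in dHET against 4264 in dKO. It ranked second among all gene rows in the P2.5 libraries and first in the E15.5 libraries. The step from Actc1 down to Acta2 was 9.35-fold in the P2.5 dHET library and 4.68-fold in dKO, and at E15.5 6.60-fold and 3.51-fold. The smallest step between neighbours in the order was the 2.13-fold one from Acta1 to Actg1 in the E15.5 dKO library. That step and the place of Actg1 rest on an uncertain level, as 97.6% of the Actg1 windows match elsewhere. With 1 library per group, none of these steps could be set against a spread between replicates.

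**Figure D2:**
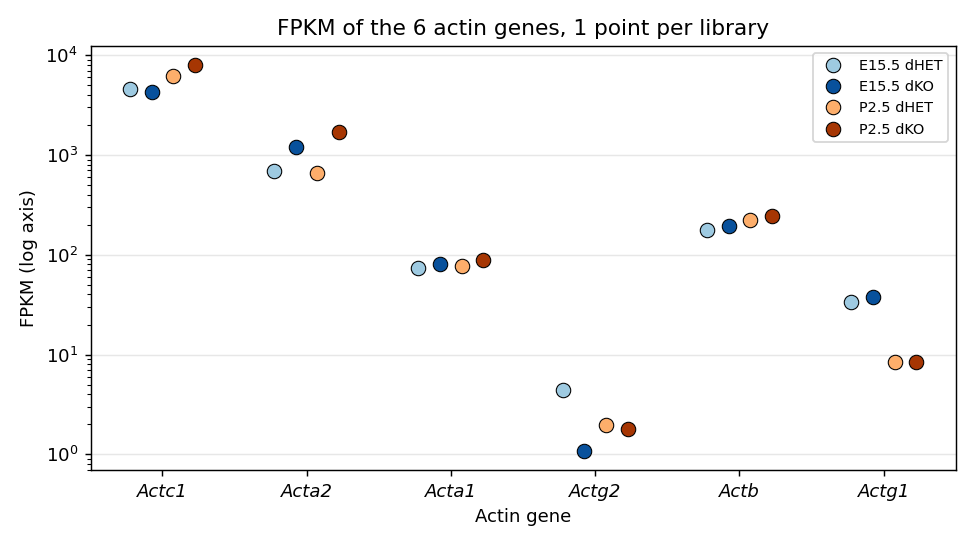
Level of each actin gene (FPKM, logarithmic axis) in the 4 libraries, 1 point per library, by stage and genotype. Acta2 lies higher in the dKO library at both stages, Actg2 lies lower in dKO at E15.5, and the points of the other 4 genes lie close together within a stage.

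Acta2 was the actin that differed most at P2.5 and that was higher in dKO at both stages by more than 1.5-fold. Acta2 (NM_007392, chr19:34315580-34329826, 9 exons in GENCODE) was at 658 FPKM in dHET against 1692 in dKO at P2.5. At E15.5 it was at 692 in dHET against 1215 in dKO. The lowest dKO value was thus above the highest dHET value, across libraries that were normalised separately by stage. As log2((FPKM dKO + 1)/(FPKM dHET + 1)), the scale of all fold changes below, this was a log2 change of 1.36 (2.57-fold) at P2.5 and 0.81 (1.75-fold) at E15.5. Its place among all gene rows moved from rank 25 to rank 10 at P2.5 and from 17 to 9 at E15.5.

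The read count behind Acta2 was large, so counting error was small beside the difference. The P2.5 values corresponded to about 52285 and 150434 fragments, and the ratio of the FPKM values, 2.57, had a 95% counting interval of 2.54 to 2.60. The E15.5 ratio of 1.76 had an interval of 1.74 to 1.77. Reads without molecular identifiers are not independent molecules, so these intervals cover counting error only and not the spread between hearts.

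The authors' deposited table implies a wider error for the same difference. In the authors' deposited table the log2 change of Acta2 at P2.5 was 1.36 with p = 0.00991 and q = 0.524, which implies a standard error of 0.53 and a 95% interval of 0.33 to 2.40. For E15.5 the authors' deposited table gives 0.81 with p = 0.00551 and q = 0.337, an implied standard error of 0.29 and an interval of 0.24 to 1.38. Both intervals lie above 0, but the authors' deposited table does not call Acta2 significant at either stage. These p-values compare 2 libraries, not genotypes.

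Few genes were higher in dKO by as much as Acta2. A gene entered the count when 1 of the libraries of the stage reached 5 FPKM, and was called higher or lower from 1.5-fold on. At P2.5, 5 of the 6 actins passed that filter and 1 of the 5, Acta2, was higher, against 3.59% of 8197 genes. None was lower, against 1.15%. At E15.5 the same 5 passed and Acta2 was again the 1 that was higher, against 0.494% of 8308 genes, with none lower against 0.566%. Actg2 did not pass at either stage, its highest value being 4.47 FPKM. Both stages together, 26 of 7645 genes counted at each (0.340%) were at least 1.5-fold higher at both, Acta2 among them. At each stage 13 genes had a larger positive change than Acta2. Among genes of at least 100 FPKM in both libraries of a stage, the 1 with a larger positive change at P2.5 was Nppa, which encodes atrial natriuretic peptide, at 182 FPKM in dHET against 1021 in dKO. None of the 245 such genes at E15.5 had a larger positive change, while Eln and Mb, described below with Actg2, had larger negative ones.

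**Figure D3:**
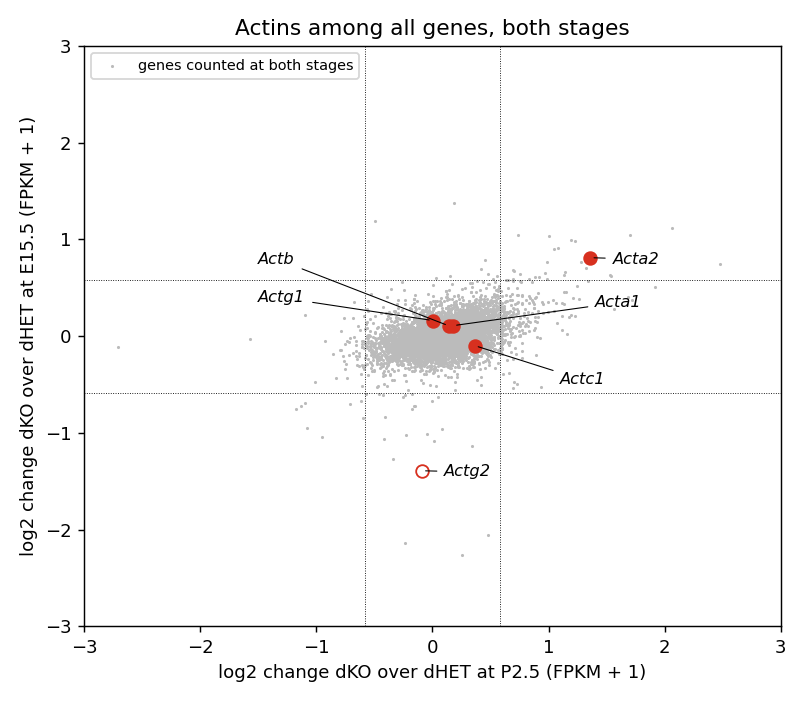
Log2 change of dKO over dHET at P2.5 (horizontal) and at E15.5 (vertical), on the log2(FPKM + 1) scale, with actins in red and the 7645 genes counted at both stages in grey. Dotted lines mark 1.5-fold, 3 genes lie outside the axes, and the hollow circle of Actg2 marks a gene below the filter of 5 FPKM; Acta2 lies in the upper right corner and the other 4 filled circles lie within the lines.

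The Acta2 difference kept its direction and stayed past 1.5-fold under each scaling tried. The summed FPKM of all genes was higher in dKO at P2.5, and rescaling both libraries to the same sum shifted the median over the counted genes by -0.15, from 0.083 to -0.070. Acta2 was still higher in dKO by 1.20 after that rescaling, and by 1.28 when changes were centred on the median gene. At E15.5 the corresponding values were 0.81 and 0.82. The rescaling did alter the split of all genes at P2.5: of the genes past 1.5-fold, 75.8% were higher with the authors' scaling, 34.9% after rescaling and 52.8% after centring.

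As shares of the summed actin FPKM, which do not depend on a library's scaling, Acta2 took a larger part of the actin pool in dKO, and Actc1 a smaller one, in both pairs of libraries. At P2.5 Actc1 made up 86.4% of the actin FPKM in dHET against 79.5% in dKO, and Acta2 9.24% and 17.0%. At E15.5 Actc1 made up 82.3% in dHET against 73.6% in dKO, and Acta2 12.5% and 21.0%. The Acta2 share was thus larger in dKO by 7.75 percentage points in the postnatal pair and by 8.51 in the embryonic pair. Of the other actins, Actb lay between 2.47% and 3.32% and Acta1 lay between 0.885% and 1.38%. The sum over the 6 genes was 7123 FPKM in dHET against 9958 in dKO at P2.5, or 2.68% and 3.35% of all FPKM. At E15.5 it was 5549 and 5789.7, or 2.40% and 2.50%.

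**Figure D4:**
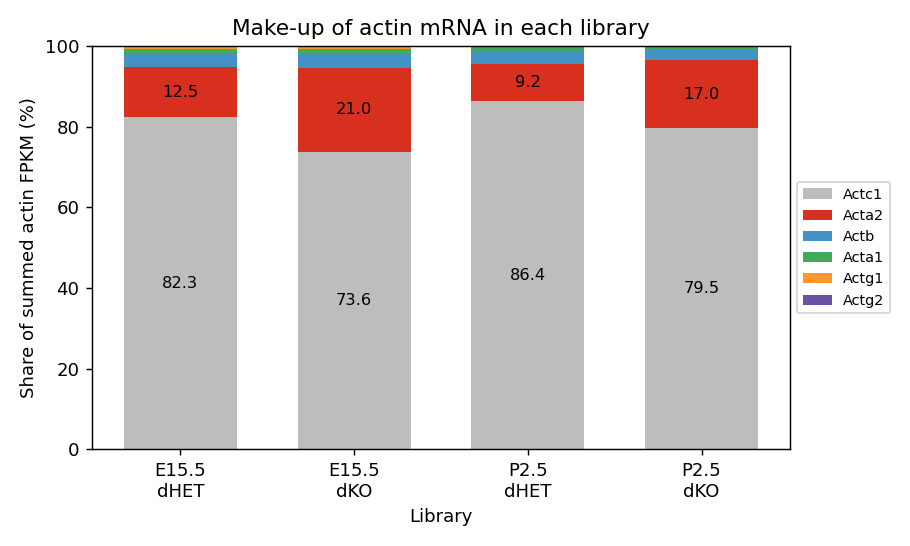
Share of the summed actin FPKM (percent) taken by each actin gene in each of the 4 libraries, as stacked bars from 0 to 100. The Acta2 segment is wider in dKO (17.0% and 21.0%) than in dHET (9.24% and 12.5%) at P2.5 and E15.5, and the Actc1 segment is narrower.

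The 2 striated muscle actins stayed under 1.5-fold. Actc1 differed by a log2 change of 0.36 at P2.5 (1.29-fold) and by -0.099 at E15.5, with opposite signs, and the former was 0.20 after rescaling to equal sums. Its error is wide: in the authors' deposited table the implied interval at P2.5 ran from -2.02 to 2.75. Acta1 (NM_009606, chr8:126415666-126418636) was at 77.8 FPKM in dHET against 88.1 in dKO at P2.5, and at 74.3 and 80.2 at E15.5. Its log2 changes were 0.18 and 0.11, with p = 0.508 and p = 0.487 in the authors' deposited table. The P2.5 change of Acta1 was 0.019 after rescaling. Across the stages, which were normalised separately, Acta1 lay within 74.3 to 88.1 FPKM, while Actc1 was 1.35-fold higher at P2.5 than at E15.5 in dHET and 1.86-fold in dKO. No test across stages was made.

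The cytoplasmic actins differed little within a stage. Actb (NM_007393, chr5:143664794-143668403) was at 223 FPKM in dHET against 246 in dKO at P2.5, and at 178 and 192 at E15.5. Its log2 changes were 0.14 and 0.11, and the first became -0.019 when the P2.5 libraries were rescaled to equal sums. Actg1 (NM_009609, chr11:120207003-120209798) was at 8.35 FPKM in dHET against 8.37 in dKO at P2.5, and at 33.6 and 37.6 at E15.5. The log2 changes of Actg1 were 0.0030 and 0.16, and the first became -0.15 after rescaling and -0.080 after centring. The interval implied by the authors' deposited table for Actg1 at P2.5 was -0.65 to 0.66, so changes in either direction inside it are not excluded.

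Actg1 was the actin that differed most between the stages. It was 4.02-fold higher at E15.5 than at P2.5 in dHET and 4.50-fold in dKO, and Actb exceeded it 26.8-fold and 29.5-fold at P2.5 but 5.32-fold and 5.11-fold at E15.5. Reads were single at P2.5 and paired at E15.5, and 97.6% of the windows of Actg1 match elsewhere. Stage and read layout cannot be told apart here.

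Actg2, the enteric smooth muscle actin, was the lowest of the 6 and lower in dKO at E15.5. Actg2 (NM_009610, chr6:83462902-83486245) was at 1.98 FPKM in dHET against 1.80 in dKO at P2.5, about 118 and 120 fragments. At E15.5 it was at 4.47 in dHET against 1.08 in dKO, about 515 and 150 fragments. The dHET value at E15.5 stood above the other 3 libraries. Its FPKM there was 4.13-fold that of dKO, with a 95% counting interval of 3.44 to 4.95, and on the log2(FPKM + 1) scale the change was -1.39. In the authors' deposited table Actg2 at E15.5 had a log2 change of -2.04 with p = 1.96e-08 and q = 8.72e-06, and was called significant. It was the 1 actin so called, at a stage where the authors' deposited table calls 93 of 14417 tested genes (0.645%) lower in dKO. At P2.5 the log2 change was -0.090, and the interval implied by the authors' deposited table was -1.16 to 0.88.

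Markers of smooth muscle did not move as one list with Acta2, and their part in the result was not tested. At P2.5, 2 of 8 counted smooth muscle markers were at least 1.5-fold higher and none lower, against 3.59% and 1.15% of all genes. Their summed FPKM was 580 in dHET against 953 in dKO. The pair was Cnn1, which encodes calponin, at 15.9 FPKM in dHET against 53.5 in dKO, and Myl9, a regulatory myosin light chain, at 464 and 792. At E15.5 the sum was 925 and 1176, with 1 of 8 higher, Kcnmb1, and 1 lower, Myh11, against 0.494% and 0.566%. Myl9, which held most of the sum at each stage, was at 721 and 967 there, and Cnn1 at 82.7 and 109.8, log2 changes of 0.42 and 0.41. Of the 10 markers measured at E15.5, 3 had changes above 0 and 7 below. Tagln, which encodes transgelin, was at 17.1 and 16.0 at P2.5 and at 46.3 and 37.6 at E15.5. The list's median was 0.40 for P2.5 and -0.22 for E15.5, beside 0.066 and -0.0078 for all genes of at least 1 FPKM in either library. None of the 10 markers was at 0 in both libraries of a stage.

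Some smooth muscle markers were low in the E15.5 dKO library beside Actg2, and their part in that result was not tested. Myh11, the smooth muscle myosin heavy chain, was at 6.95 FPKM in dHET against 0.915 in dKO at E15.5, a log2 change of -2.05, and Lmod1, smooth muscle leiomodin, at 2.33 and 0.410. Kcnmb1, a potassium channel subunit of smooth muscle, was higher there, at 2.24 and 7.42. At P2.5 Myh11 was at 4.30 and 6.41, so its direction differed between the stages.

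Of the other cell type markers, those of fibroblasts differed most from all genes at P2.5. There 3 of 9 fibroblast markers were at least 1.5-fold lower (Mfap5, Lum and Dcn) and none higher, against 1.15% and 3.59% of all genes, with a median of -0.56. The collagen genes Col1a1 and Col3a1 went the other way, at 221 FPKM in dHET against 309 in dKO and at 464 against 571, and the summed FPKM of the list was 1357 and 1328. At E15.5 the fibroblast median was -0.025, and Mfap5 was the 1 of 9 that was lower. Heart muscle markers had medians of 0.075 (P2.5, without Myh6) and -0.087 (E15.5, without Myh7). Pericyte markers had medians of 0.026 and -0.14 and endothelial markers 0.13 and 0.063, in the same order. Epicardial markers had -0.31 and -0.21 and macrophage markers -0.33 and -0.050. At E15.5, 1 of 5 pericyte markers was at least 1.5-fold lower and none higher, against 0.566% and 0.494% of all genes. It was Rgs5, at 25.1 FPKM in dHET against 14.5 in dKO. Of 4 counted epicardial markers, 1 was lower there, Krt19, and none higher. At P2.5, 1 of 5 counted macrophage markers was lower, and of 9 heart muscle markers 1 was lower and 1 higher. Of 15 skeletal muscle markers, 13 lay below 1 FPKM at P2.5 and 11 at E15.5, and Ckm, which heart muscle also expresses, held most of their sum. Of the 2 counted at E15.5, 1 was lower, Tnni2, and none higher, against 0.566% and 0.494% of all genes. The 1 erythroid marker measured, Alas2, had changes of 0.54 and 0.40.

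SRF and its cofactors drive muscle actin genes. The list's median was -0.0031 for P2.5, or -0.16 after rescaling and -0.086 after centring, and 0.046 for E15.5. At P2.5, 2 of 18 counted members, Csrp2 and Myocd, were at least 1.5-fold higher and none lower, against 3.59% and 1.15% of all genes. At E15.5 none of 17 was past 1.5-fold, a count near the background of 0.494% higher and 0.566% lower. Srf itself was at 44.3 FPKM in dHET against 39.3 in dKO at P2.5, and at 39.3 and 40.6 at E15.5. Myocd, which encodes myocardin, was at 21.7 and 33.9 at P2.5 and at 30.8 and 38.1 at E15.5, log2 changes of 0.62 and 0.30. Csrp2, a LIM domain protein of smooth muscle and developing heart, was at 84.2 and 169 at P2.5 and at 102 and 131 at E15.5. Its relative Csrp1 had changes of 0.45 and 0.42. Mbd6, listed with them, was lower in dKO at P2.5 by -0.37, and Ablim1, an actin-binding LIM protein, had a change of 0.26 at E15.5.

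The promoters of 3 muscle actins were searched for CArG boxes. The 250 bases before the transcription start are shown for the gene that differed and for the 2 striated muscle actins, from RefSeq on GRCm38.p6, a later build than the files use. They run 5′ to 3′ on the minus strand, and capitals mark a CArG box or a CArG box with 1 C or G among its central bases.
Acta2: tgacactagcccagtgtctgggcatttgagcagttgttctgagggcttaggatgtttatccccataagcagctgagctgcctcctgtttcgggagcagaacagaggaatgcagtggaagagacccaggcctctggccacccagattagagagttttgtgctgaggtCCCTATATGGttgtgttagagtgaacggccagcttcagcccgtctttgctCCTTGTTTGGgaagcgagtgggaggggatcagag
Actc1: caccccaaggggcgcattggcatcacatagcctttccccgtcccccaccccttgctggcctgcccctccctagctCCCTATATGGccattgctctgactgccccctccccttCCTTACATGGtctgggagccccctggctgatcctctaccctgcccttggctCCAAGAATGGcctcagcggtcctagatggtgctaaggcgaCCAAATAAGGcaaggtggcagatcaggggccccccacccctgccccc
Acta1: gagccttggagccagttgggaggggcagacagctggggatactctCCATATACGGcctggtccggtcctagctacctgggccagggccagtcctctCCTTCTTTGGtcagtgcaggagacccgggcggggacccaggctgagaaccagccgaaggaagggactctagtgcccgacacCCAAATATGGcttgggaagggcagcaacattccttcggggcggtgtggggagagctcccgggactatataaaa
They are at chr19:34255374-34255623 for Acta2, chr2:114052876-114053125 for Actc1 and chr8:123894776-123895025 for Acta1. Of the 6 genes, 4 were in the promoter table, Acta1, Acta2, Actc1 and Actg1, and Actb and Actg2 are named only.

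The strand shown was searched, which for this motif gives the same places as the other strand, and no boxes overlapped. Acta2 held 2 boxes with 1 C or G, starting 84 and 34 bases before the start site, and no full CArG box. Actc1 held 1 full box, 47 bases before the start, and 3 with 1 C or G, at 175, 138 and 87. Acta1 held 1 full box at 73 and 2 others at 205 and 154, and Actg1 held 1 full box at 90. A full box was present in 1.47% of 32851 promoters of the same length, either kind in 8.59%, and at least 2 of either kind in 0.670%. The 3 muscle actins shown each held at least 2 of either kind. A part of these boxes in the Acta2 difference was not tested. The word ACATTCC, which pairs with the seed of miR-1, was in none of the 3′ UTRs of the 6 actins, the longest per gene, of 80 to 719 bases in GENCODE M1. It was in 1818 of 19915 genes (9.13%), and its absence says only that these letters are not in those UTRs.

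Partners of actin in the thin filament showed no shared direction. At P2.5, 2 of 16 counted members were at least 1.5-fold higher and none lower, against 3.59% and 1.15% of all genes, with a median of 0.0080, or -0.15 after rescaling. The higher ones were Tnnc1, cardiac troponin C, at 1685 FPKM in dHET against 2996 in dKO, and Tnnt2, cardiac troponin T, at 3314 and 5545. Tpm1, a tropomyosin, was at 3203 and 4438, and Lmod2, a leiomodin that lengthens thin filaments, at 68.9 and 52.0. At E15.5 none of 16 was past 1.5-fold, where 0.494% of all genes were higher and 0.566% lower, and the median was -0.061. Lmod3, Lmod2, Tnni3 and Actn2 had log2 changes there of -0.46, -0.33, -0.33 and -0.27. Tnnc1 and Tnnt2 had changes of 0.052 and 0.0030 at E15.5, unlike Acta2, though the difference between the stages was not tested.

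None of the counted genes that fold, process or bind actin in the following 4 lists was past 1.5-fold. Of all genes, 3.59% were higher and 1.15% lower at P2.5, with 0.494% and 0.566% for E15.5, so counts of 0 in lists of this size lie near the background. Of 14 chaperones that fold actin, the CCT ring and prefoldin, none was past 1.5-fold at either stage, and the medians were 0.16 for P2.5 and -0.095 for E15.5. Rescaling to equal sums turned the sign of the former, to -0.0016. The prefoldin subunit Pfdn2 had the largest change of that list at P2.5, 0.37, and the CCT subunit Cct6a at E15.5, -0.19. Of 15 counted actin-related proteins, among them the Arp2/3 complex that branches filaments, none was past 1.5-fold, with medians of 0.16 (0.0021 after rescaling) and 0.020, and the subunit gene Arpc1a had changes of 0.42 and 0.27. Of 4 genes for the processing of actin's N terminus and its modification, none was past 1.5-fold, with medians of 0.11 (-0.043 after rescaling) and -0.20. Among them Setd3, the actin histidine methyltransferase, had changes of 0.42 and 0.011. Of 16 stress fibre and cortical partners none was past 1.5-fold, with medians of 0.17 (0.018 after rescaling) and -0.015, and Myh9, a nonmuscle myosin, had a change of 0.52 at P2.5.

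**Figure D5:**
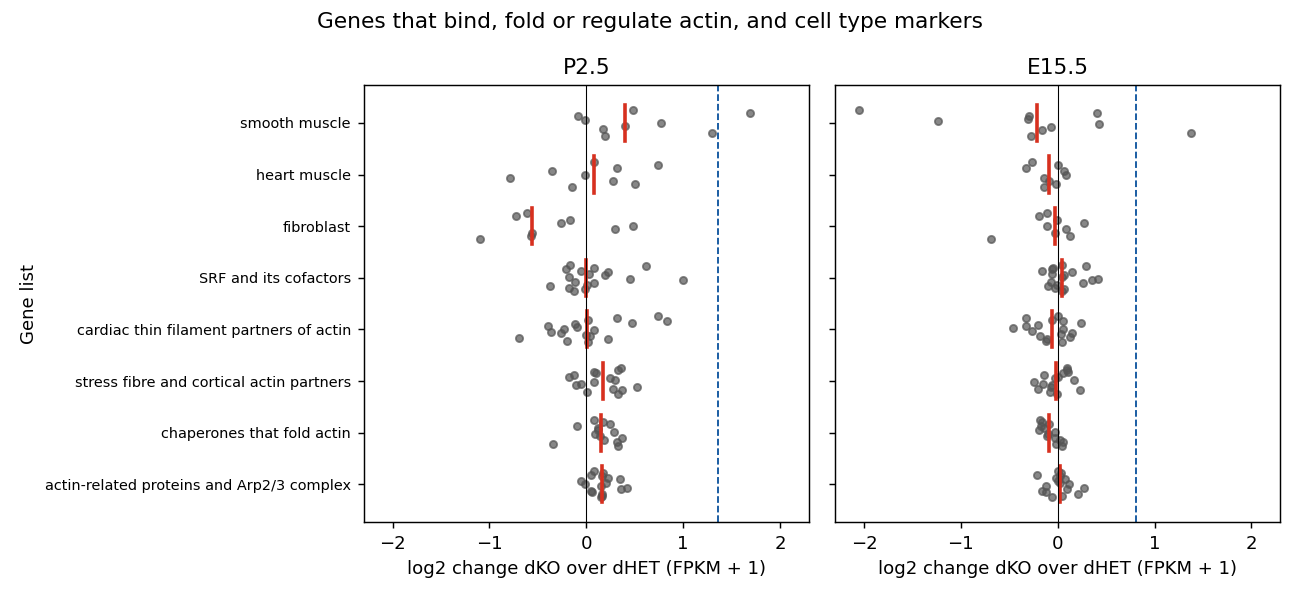
Log2 change of dKO over dHET on the log2(FPKM + 1) scale for the genes of the lists named on the vertical axis, by stage, 1 grey point per gene of at least 1 FPKM, with the list median as a red bar. The dashed blue line marks the change of Acta2, 1.36 at P2.5 and 0.81 at E15.5, and the list medians shown lie to the left of it.

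The genes whose pair of changes lay nearest to each actin were sought among the 568 genes of at least 50 FPKM in all 4 libraries. Nearness was the Euclidean distance over the pair of within-stage changes, so it rests on 2 values per gene. Nearest to Acta2 was Cox6a1, a subunit gene of cytochrome c oxidase, at a distance of 0.55 log2 units, with changes of 1.07 and 0.34. Casq2, the calcium-binding calsequestrin of heart muscle, followed at 0.57 with changes of 0.83 and 0.59, and then Csrp2 at 0.58. For Actc1, Acta1, Actb and Actg1 the nearest genes lay within 0.023, and were Cdk4, Rps21, Gabarap and Lamp1. Most genes had small changes, so an actin with small changes has close neighbours, and the distance mostly restates the size of the change. Those distances are below the standard errors implied by the authors' test, such as 1.22 (P2.5) and 0.62 (E15.5) for Actc1. Which genes came nearest is therefore uncertain. For Actg2 the nearest was Mb, which encodes myoglobin, at 0.38. Mb was at 2888 FPKM in dHET against 2791 in dKO at P2.5, and at 355 and 175 at E15.5. Bgn followed at 0.87, and then Eln, which encodes elastin, at 0.94, with 709.7 FPKM in dHET against 147 in dKO at E15.5. Acta2 and Actg2 lay apart from most abundant genes, and in different directions. Actg2 was itself below the filter of 5 FPKM. Its E15.5 change of -1.39 became -0.64 with a pseudocount of 5 and -1.95 with 0.1. Its nearest genes were not sought under those settings.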

How the data were processed

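Gene levels were FPKM as deposited by the authors, in 1 table per stage with 22552 rows; TopHat, Bowtie, Cufflinks and the build mm9 are named, without versions, in the submitters' processing notes. Per the file headers, other deposited columns hold the authors' log2 fold change, test statistic, p-value and q-value, and the E15.5 fold change was turned to dKO over dHET. Commas had displaced 86 rows of each table, which were realigned, and changes used rows with status OK or NOTEST. Ranks and the summed FPKM of all genes, which served for percentages of all FPKM and for rescaling, took in every row. Among the rows left out of the changes were those of Myh6 (P2.5) and of Myh7 (E15.5). Another status flag marked them, and they were listed at 0 in dKO. In dHET they stood at 2270 and 1335 FPKM, so they added to the sums of dHET only.

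Changes were log2((FPKM dKO + 1)/(FPKM dHET + 1)) for each stage separately, counted where either FPKM was at least 5 and at a fold of 1.5; list medians used genes of at least 1 FPKM in either library. The pseudocount of 1 understates changes of low genes. No p-value was computed. The standard error implied by the authors' test is their log2 change over their test statistic.

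Scaling totals recovered from the steps of low FPKM values came to 44600000 for dHET and 49900000 for dKO (P2.5), and to 86500000 and 104000000 (E15.5). Between 77.2% and 79.0% of those values were whole fragments within 2%, too few for a count test. Fragment numbers are FPKM times length over the value of 1 fragment.

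Named were all 6 actins, up to 4 genes per list with the largest absolute change, and the 3 nearest genes per actin. Srf, Tagln, Lmod1, Col1a1, Col3a1, Kcnmb1 and Nppa, some list genes at their other stage, and the sex-linked genes were named after their values were seen. The members, the 6 lists of partner genes and the 10 marker lists were chosen with earlier results of these data known. Alternatives were other pseudocounts, filters, scalings, status flags, folds and actin sums. Python 3.11.15, pandas 2.3.3, NumPy 2.4.6, SciPy 1.17.1, Biopython 1.88 and matplotlib 3.10.9 were used, and the scripts were tested on simulated data.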

Additional observations from a re-analysis of the deposited data

Results flagged for a closer look

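These values have opposite signs at the 2 stages. The difference between the stages was not tested, and each stage is 1 pair of libraries. Actc1 had log2 changes of 0.36 (P2.5) and -0.099 (E15.5). Smooth muscle markers stood at a median of 0.40 (P2.5) and -0.22 (E15.5), with Myh11 at 0.48 and -2.05. The chaperones that fold actin had medians of 0.16 and -0.095, genes of actin processing and N-terminal maturation 0.11 and -0.20, and stress fibre and cortical partners 0.17 and -0.015.

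Smaller differences of this kind were seen in 5 other lists. The medians at P2.5 and E15.5 were -0.0031 and 0.046 for SRF and its cofactors, 0.0080 and -0.061 for thin filament partners, and 0.075 and -0.087 for heart muscle markers. They were 0.026 and -0.14 for pericyte markers and -0.11 and 0.0021 for skeletal muscle markers. After rescaling to equal sums, the P2.5 medians of the chaperones, actin processing genes, thin filament partners, heart muscle and pericyte markers were -0.0016, -0.043, -0.15, -0.085 and -0.13. Of these 5 lists, none then had opposite signs at the 2 stages with the E15.5 medians above.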

How the results depend on the processing

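No paired analysis was possible because each group had 1 library, and for the same reason no library could be left out. Under other pseudocounts and scalings, 45 of 48 actin changes stayed within the standard error implied by the authors' test, and 3 moved: Actg2 at E15.5 was -1.95 with a pseudocount of 0.1, -0.64 with 5 and -1.84 after rescaling to equal sums. Acta2 ranged from 1.20 to 1.36 (P2.5) and from 0.81 to 0.82 (E15.5). Summing only the 4 muscle actins gave an Acta2 share larger in dKO by 7.89 percentage points (P2.5) and 8.88 (E15.5). The counts of genes at least 1.5-fold higher and lower, 294 and 94 for P2.5, with 41 and 47 for E15.5, depended more on the settings. With a pseudocount of 5 they came to 140 and 38 for P2.5, with 18 and 21 for E15.5, and at 2-fold 43 and 21, and 8 and 15. With FPKM of at least 10 there were 59 lower at P2.5, and 26 higher and 24 lower at E15.5, and with no filter 159 lower for P2.5 and 93 for E15.5. For P2.5, rescaling gave 159 higher and 296 lower, and centring on the median gene 180 and 161. The list medians were recomputed under alternatives chosen after seeing the data: 107 of 128 moved by less than 0.1, 21 by more, and 11 changed sign. The Actg2 values rest on the fewest fragments, 118 to 515.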
